A study of Rattus norvegicus with 12 samples.

Results

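Neurexins, neuroligins and their partners are adhesion and secreted proteins that join the presynaptic membrane to the postsynaptic one. The set described here was named gene by gene: Nrxn2 and Nrxn3, Nlgn1, Nlgn2 and Nlgn3, Lrrtm1 and Lrrtm2, Lgi1 and Cntnap2. Of these 9 genes, 7 are described here, out of 10729 genes kept from the deposited table, and Lrrtm1 and Cntnap2 were not analysed here. All 7 passed the filter on low values and were tested.

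Neurexins sit on the presynaptic terminal and bind neuroligins, LRRTM proteins and cerebellins across the synaptic cleft. Neuroligins and LRRTM proteins are postsynaptic: Nlgn1 is known mainly from excitatory synapses, Nlgn2 from inhibitory synapses, and Nlgn3 from both. Lgi1 is a protein secreted by neurons that links ADAM22 and ADAM23 across the cleft and keeps AMPA receptors and Kv1 potassium channels in place, and its loss causes epilepsy.

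The study measured polyadenylated RNA, with strand-marking libraries and single-end reads, in hippocampal neurons of CD (Sprague Dawley) rats, and its title concerns the NMDA receptor subunit GluN3A, the product of Grin3a, and transcription induced by synaptic activity. Neuron-enriched cultures were made from E18.5 embryos of both sexes and infected with lentivirus after 1 day in vitro, so the controls were infected too. Per the labels, control cultures (Ctrl) received the empty pLKO.1 vector, although the deposited headers abbreviate the control as scr, and knockdown cultures (KD) received the same vector with 1 short hairpin RNA against Grin3a. From day 5 every culture was silenced with 1 µM tetrodotoxin (TTX), a toxin that blocks voltage-gated sodium channels. Collection on day 7 followed either 48 h in TTX, giving the groups Ctrl_TTX and KD_TTX, or a further 6 h without it, giving Ctrl_TTXwd and KD_TTXwd. Each of the 4 groups has 3 libraries, 12 in all.

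Values are FPKM, a read density scaled to transcript length and library size, as deposited by the authors. Comparisons between genes rely on that scaling, and the annotation and use of strand behind it are not given. They sum to between 428070 and 517703 per library; the number of reads is unknown, so no counting interval can be given. Changes are differences of log2(FPKM + 1) from limma, which understate the change of low genes, with p-values adjusted over all 10689 genes tested. A change was called at an adjusted p under 0.05. All 11 pan-neuronal markers were in the table and none was below 0.1 FPKM in all 3 libraries of a group. In Ctrl_TTX this was fixed in advance, because no gene in the table is under 1.00 FPKM in Ctrl_TTX replicate 1. Grin3a averaged 19.9 FPKM in Ctrl_TTX and 6.69 in KD_TTX, and 12.8 in Ctrl_TTXwd and 3.68 in KD_TTXwd, but neither difference passed in limma (log2 change -1.48, adjusted p = 0.936, and log2 change -1.42, adjusted p = 0.301). The authors' deposited table calls Grin3a lower in both, with log2 changes of -1.57 and -1.80 and a q of 0.00102 each. The library labelled Ctrl_TTXwd replicate 3 had 4.88 FPKM of Grin3a, within the range of the knockdown libraries, and it was the lowest of its group for all 7 genes described here. The library labelled Ctrl_TTX replicate 1 also stood apart: within its group it was highest for Nrxn3, Nlgn1, Nlgn3, Lrrtm2 and Lgi1 and lowest for Nrxn2 and Nlgn2.

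After TTX withdrawal, transcripts of Nrxn2 and Nlgn2 fell to between 0.222 and 0.341 of their mean FPKM in TTX in both the control and the knockdown cultures. Nlgn3 was called lower in control cultures, and its lower level in knockdown cultures did not pass. Lgi1 rose 1.98-fold in knockdown cultures, from 25.0 ± 2.29 to 49.5 ± 4.10 FPKM (SD, n = 3). That call was lost when any 1 of the 6 knockdown libraries was left out (adjusted p between 0.0601 and 0.107 in limma). Nrxn3, Nlgn1 and Lrrtm2 passed in no comparison. In control cultures, 3 of the 7 genes were called lower and 0 higher, where 11.1% of all genes tested were called lower and 6.61% higher (17.7% in either direction). Fitted on the 6 control libraries alone, 0 of the 7 were called lower. In knockdown cultures, 2 of the 7 were called lower and 1 higher, where 9.22% of all genes were called lower and 4.95% higher (14.2% in either direction). The median log2 change of the 7 was -1.13 in control and -0.21 in knockdown cultures, beside -0.01 and 0.00 for all genes.

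**Figure D1:**
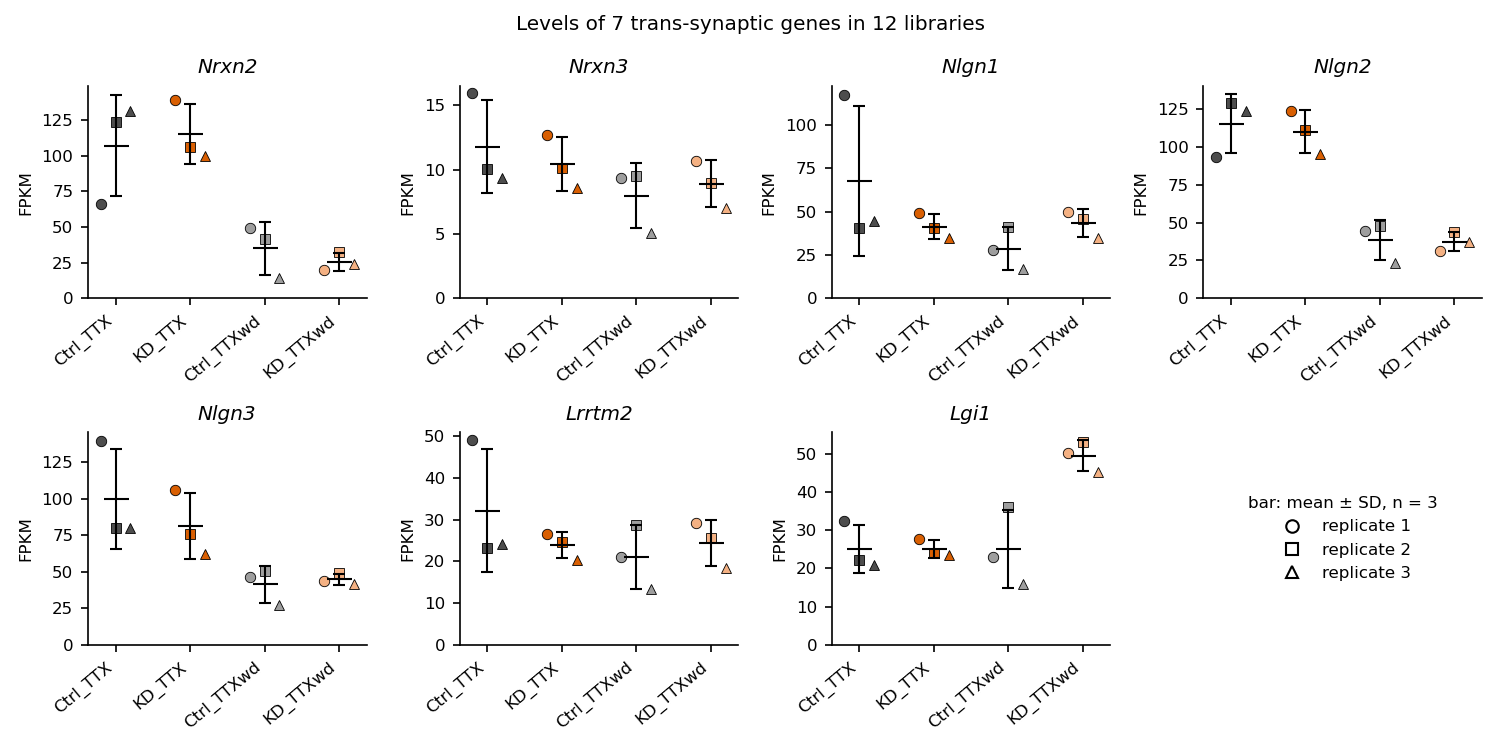
Level of each of the 7 genes in FPKM in every library, one panel per gene, with 3 points per group and bars at the group mean ± SD. Nrxn2 and Nlgn2 lie lower in both withdrawal groups, and Lgi1 lies above all other libraries of its panel only in KD_TTXwd, at 45.1 to 53.2 FPKM.

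Nrxn2 and Nrxn3 encode presynaptic neurexins. Nrxn2 lies on chromosome 1 (rn5, chr1:228789461-228899340, plus strand, as deposited). Nrxn2 had 66.3, 123 and 131 FPKM in Ctrl_TTX and 49.2, 41.7 and 14.1 FPKM in Ctrl_TTXwd. Every control library in TTX lay above every control library after withdrawal. The log2 change was -1.70 (SE 0.41, 95% interval -2.60 to -0.79, adjusted p = 0.0196); it no longer passed without Ctrl_TTX replicate 2 (adjusted p = 0.0578) or Ctrl_TTX replicate 3 (adjusted p = 0.0576), or from the 6 control libraries alone (adjusted p = 0.112). In knockdown cultures Nrxn2 had 139, 106 and 99.6 FPKM in KD_TTX and 20.0, 32.6 and 24.1 FPKM in KD_TTXwd. Again the groups did not overlap, and the change was -2.14 (SE 0.41, 95% interval -3.04 to -1.24, adjusted p = 0.00901); without KD_TTXwd replicate 1 the adjusted p was 0.0525. Both withdrawal changes of Nrxn2 carried a q of 0.00102 in the authors' deposited table, with log2 changes of -1.61 and -2.17.

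Nrxn3 spans one of the longest loci in the table (rn5, chr6:121410789-123337131, plus strand), longer than that of 99.9% of the genes tested. Nrxn3 had 15.9, 10.1 and 9.34 FPKM in Ctrl_TTX and 9.35, 9.49 and 5.04 FPKM in Ctrl_TTXwd. It had 12.7, 10.1 and 8.55 FPKM in KD_TTX and 10.7, 8.98 and 7.02 FPKM in KD_TTXwd. It was the lowest of the 7 in every group, and its groups overlapped in both withdrawal comparisons. The withdrawal changes of -0.52 (95% interval -1.11 to 0.07, adjusted p = 0.196) and -0.21 (95% interval -0.80 to 0.38, adjusted p = 0.641) did not pass.

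Nlgn1, Nlgn2 and Nlgn3 encode paralogous postsynaptic proteins. Nlgn2 occupies a short locus (rn5, chr10:56176706-56189963, minus strand) and Nlgn1 a long one (rn5, chr2:130772080-131506623, minus strand). The promoters of this pair are printed because Nlgn2 fell in both withdrawal comparisons and its paralog Nlgn1 passed in neither: each is 300 bases, 250 before the annotated start and 50 after, from RefSeq on build GRCr8, 5′ to 3′ on the gene's strand. They are at chr2:110930627-110930926 for Nlgn1 and chr10:55056529-55056828 for Nlgn2, both on the minus strand. Capitals mark E-boxes (CANNTG) in Nlgn1 and GC boxes (GGGCGG, here in its reverse complement CCGCCC, 2 of them overlapping) in Nlgn2.
Nlgn1: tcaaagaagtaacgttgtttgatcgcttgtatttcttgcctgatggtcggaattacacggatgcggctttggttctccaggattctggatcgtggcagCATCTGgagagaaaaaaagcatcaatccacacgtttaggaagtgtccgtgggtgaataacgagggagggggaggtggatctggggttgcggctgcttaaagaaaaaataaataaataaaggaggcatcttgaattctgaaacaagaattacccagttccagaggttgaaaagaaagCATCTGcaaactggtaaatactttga
Nlgn2: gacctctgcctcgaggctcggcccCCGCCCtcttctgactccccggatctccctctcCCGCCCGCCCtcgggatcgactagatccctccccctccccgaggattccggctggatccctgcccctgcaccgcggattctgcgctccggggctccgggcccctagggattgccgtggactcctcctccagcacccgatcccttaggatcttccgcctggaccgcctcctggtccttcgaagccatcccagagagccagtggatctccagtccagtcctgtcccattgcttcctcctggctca
The Nlgn2 window was 67.3% G or C and held 3 GC boxes; 33.1% of 33469 rat promoters of this length hold at least 1 on either strand. The Nlgn1 window was 43.3% G or C, held no GC box and 2 E-boxes, a motif that 72.1% of the promoters hold. Neither held the core of the cAMP response element, TGACG, and the Nlgn3 window, 61.7% G or C, held none of the 3 motifs. The median over all promoters was 51.7% G or C, and a match is not a site of binding.

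Nlgn2 had 93.3, 129 and 124 FPKM in Ctrl_TTX and 44.4, 47.5 and 23.3 FPKM in Ctrl_TTXwd. In knockdown cultures it had 124, 112 and 95.2 FPKM in KD_TTX and 31.5, 44.0 and 37.0 FPKM in KD_TTXwd. All 6 TTX libraries lay above all 6 withdrawal libraries. Nlgn2 fell by 1.61 on the log2 scale in control cultures (SE 0.26, 95% interval -2.18 to -1.05, adjusted p = 0.00452) and by 1.53 in knockdown cultures (95% interval -2.10 to -0.97, adjusted p = 0.0055). Fitted on the 6 control libraries alone, the control change did not pass (adjusted p = 0.0728). The difference between these responses was 0.08 (95% interval -0.71 to 0.87, adjusted p = 0.937), so a difference of up to 0.87 in size lies within the interval.

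Nlgn3 lies on chromosome X (rn5, chrX:72051993-72074002, plus strand). It had 140, 79.8 and 79.9 FPKM in Ctrl_TTX and 46.5, 50.4 and 26.9 FPKM in Ctrl_TTXwd. It had 106, 75.9 and 62.3 FPKM in KD_TTX and 43.8, 49.1 and 41.6 FPKM in KD_TTXwd. TTX libraries lay above withdrawal libraries in both pairs of groups. The fall in control cultures passed (log2 change -1.25, SE 0.29, 95% interval -1.88 to -0.62, adjusted p = 0.0156), but not without Ctrl_TTXwd replicate 3 (-0.98, adjusted p = 0.0515) or from the 6 control libraries alone (adjusted p = 0.0978). In knockdown cultures the change of -0.82 (95% interval -1.45 to -0.19, adjusted p = 0.0791) did not pass. It did pass with the replicate number as a block (adjusted p = 0.036), from the 6 knockdown libraries alone (adjusted p = 0.0239), without Ctrl_TTX replicate 1 (adjusted p = 0.0357) and without Ctrl_TTXwd replicate 3 (adjusted p = 0.042). The authors' deposited table gives it a log2 change of -0.86 and a q of 0.00322. The difference between the withdrawal responses of Nlgn3 was 0.44 (95% interval -0.46 to 1.33, adjusted p = 0.664 in limma) and was not called.

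Nlgn1 had 117, 40.7 and 44.7 FPKM in Ctrl_TTX and 28.0, 41.1 and 16.7 FPKM in Ctrl_TTXwd. It had 49.2, 40.3 and 34.5 FPKM in KD_TTX and 49.8, 45.8 and 34.5 FPKM in KD_TTXwd. The first control library in TTX lay far above the other 11, and control libraries overlapped between TTX and withdrawal. The change in control cultures was -1.13 (95% interval -1.99 to -0.26, adjusted p = 0.0678), and it was -0.65 (adjusted p = 0.166) without Ctrl_TTX replicate 1. It passed with the replicate number as a block (adjusted p = 0.0355) and without Ctrl_TTXwd replicate 2 (adjusted p = 0.0387). In knockdown cultures the change was 0.07 (95% interval -0.80 to 0.93, adjusted p = 0.936). The difference between the responses was 1.19 (95% interval -0.03 to 2.41), with an unadjusted p of 0.0547 and an adjusted p of 0.507 in limma. It was 0.71 without Ctrl_TTX replicate 1 and 1.49 without Ctrl_TTXwd replicate 2, the lowest and highest values with 1 library left out. The authors' deposited table calls Nlgn1 lower after withdrawal in control cultures (log2 change -1.24, q = 0.00102) and lower with the knockdown in TTX (log2 change -0.71, q = 0.0382). In limma the latter change was -0.54, and -0.06 without Ctrl_TTX replicate 1.

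To compare the 3 neuroligins within a library, the share of each in their summed FPKM was taken per library, a quantity that library scaling cannot move. Nlgn1 made up 33.5%, 16.3% and 18.0% of neuroligin FPKM in Ctrl_TTX and 17.6%, 17.7% and 18.0% in KD_TTX. After withdrawal it made up 23.6%, 29.6% and 24.9% in Ctrl_TTXwd and 39.8%, 33.0% and 30.5% in KD_TTXwd. Apart from Ctrl_TTX replicate 1, every TTX library lay below every withdrawal library. Nlgn2 made up 26.6%, 51.8% and 49.9% in Ctrl_TTX and 44.3%, 49.0% and 49.6% in KD_TTX. After withdrawal Nlgn2 made up 37.4%, 34.2% and 34.8% in Ctrl_TTXwd and 25.2%, 31.7% and 32.7% in KD_TTXwd. The group means of the Nlgn3 share lay between 34.6% and 38.5%.

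With treatment labels permuted within each virus, the mean Nlgn1 share was 20.2% in TTX and 30.2% after withdrawal (exact two-sided permutation p = 0.03, 0.09 after adjustment over 6 tests). The mean Nlgn2 share was 45.2% in TTX and 32.7% after withdrawal (exact permutation p = 0.02, adjusted 0.09). Neither passed after adjustment. Without Ctrl_TTX replicate 1, the withdrawal difference was 12.8 percentage points for Nlgn1 and -16.6 for Nlgn2, each with an adjusted p of 0.015 by the exact permutation test. Knockdown moved the mean shares by 1.78 points for Nlgn1 (exact permutation p = 0.6) and -0.36 points for Nlgn2 (exact permutation p = 0.975). Without the same library these became 4.51 and -4.39 points, each with an adjusted p of 0.03 by the exact permutation test, so 1 library decides these calls. The Nlgn3 share differed by 2.48 points with withdrawal (exact permutation p = 0.17) and by -1.42 points with knockdown (exact permutation p = 0.415).

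**Figure D2:**
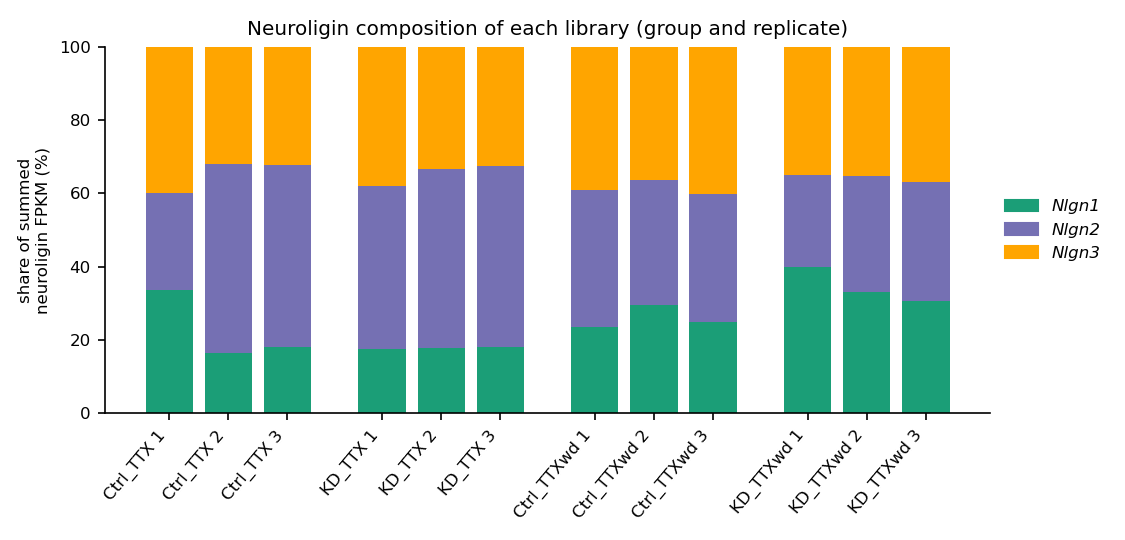
Share in percent of Nlgn1, Nlgn2 and Nlgn3 in their summed FPKM, stacked for each of the 12 libraries by group. The Nlgn2 share is 44.3% to 51.8% in the TTX libraries apart from Ctrl_TTX replicate 1, at 26.6%, and 25.2% to 37.4% after withdrawal.

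Lrrtm2 encodes a postsynaptic leucine-rich repeat protein that binds neurexins. It is deposited under the same locus as Ctnna1, the alpha-catenin gene on the opposite strand (rn5, chr18:27633008-27766069), so its own span is not given. Whether the counting used strand is not stated, so reads of the pair cannot be told apart. Lrrtm2 had 49.1, 23.2 and 24.2 FPKM in Ctrl_TTX and 21.0, 28.8 and 13.5 FPKM in Ctrl_TTXwd. It had 26.5, 24.6 and 20.4 FPKM in KD_TTX and 29.2, 25.6 and 18.3 FPKM in KD_TTXwd. The groups overlapped in both comparisons, with changes of -0.56 (95% interval -1.26 to 0.14, adjusted p = 0.237) and 0.01 (95% interval -0.69 to 0.71, adjusted p = 0.982). The control change was -0.22 without Ctrl_TTX replicate 1 and -0.81 without Ctrl_TTXwd replicate 2. Ctnna1 averaged 40.6 FPKM in Ctrl_TTX and 58.8 in Ctrl_TTXwd, a log2 change of 0.50 (adjusted p = 0.202), and 45.7 in KD_TTX and 39.0 in KD_TTXwd, a change of -0.21 (adjusted p = 0.635). For Ctnna2, another alpha-catenin gene, whose locus is known to hold an LRRTM gene, the log2 changes of -0.21 (adjusted p = 0.542) and 0.26 (adjusted p = 0.476) did not pass.

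Lgi1 lies on chromosome 1 (rn5, chr1:264436440-264477332, plus strand). Lgi1 had 32.3, 22.1 and 20.9 FPKM in Ctrl_TTX and 22.9, 36.0 and 16.0 FPKM in Ctrl_TTXwd, and these groups overlapped (log2 change -0.05, 95% interval -0.62 to 0.51, adjusted p = 0.897). Lgi1 had 27.6, 23.9 and 23.5 FPKM in KD_TTX and 50.3, 53.2 and 45.1 FPKM in KD_TTXwd. All KD_TTXwd libraries lay above all other libraries of the study. The rise in knockdown cultures was 0.96 (SE 0.26, 95% interval 0.40 to 1.52, adjusted p = 0.03). Leaving out any of the 6 knockdown libraries ended the call (adjusted p between 0.0601 and 0.107), with the log2 change between 0.91 and 1.03. The difference between the withdrawal responses of Lgi1 was 1.01 (95% interval 0.22 to 1.81, unadjusted p = 0.0168, adjusted p = 0.492 in limma), so a difference in response was not called.

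The promoters of Lrrtm2 and Lgi1 are printed because the pair held different motifs: they are at chr18:27096918-27097217 on the minus strand and chr1:245455441-245455740 on the plus strand (RefSeq, GRCr8, 300 bases each as above). Capitals mark cores of the cAMP response element (TGACG or its reverse complement CGTCA) in Lrrtm2 and E-boxes in Lgi1.
Lrrtm2: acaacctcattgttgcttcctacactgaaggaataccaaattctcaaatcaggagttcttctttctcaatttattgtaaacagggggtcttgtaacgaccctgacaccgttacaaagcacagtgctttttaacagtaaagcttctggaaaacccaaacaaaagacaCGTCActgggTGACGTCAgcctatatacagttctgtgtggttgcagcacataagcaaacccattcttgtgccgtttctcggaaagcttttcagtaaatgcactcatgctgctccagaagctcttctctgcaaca
Lgi1: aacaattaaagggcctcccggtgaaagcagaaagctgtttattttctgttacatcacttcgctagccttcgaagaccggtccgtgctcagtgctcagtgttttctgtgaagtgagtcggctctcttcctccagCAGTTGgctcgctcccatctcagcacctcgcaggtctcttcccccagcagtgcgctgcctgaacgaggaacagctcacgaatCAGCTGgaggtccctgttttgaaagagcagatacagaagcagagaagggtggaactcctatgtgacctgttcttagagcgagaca
Lrrtm2 held 3 cores, 2 of them overlapping in 1 palindrome, and 21.2% of the promoters hold at least 1. Lgi1 held 2 E-boxes and no core. Lrrtm2, with 3 cores, passed in no comparison, and a match draws nothing about any factor.

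Knockdown was compared with control within each treatment, and these comparisons share their libraries with the withdrawal comparisons. In TTX, 0 of the 7 genes were called in limma (0.0% of all genes tested were), and 0 had an unadjusted p under 0.05. Of the 7, 0 had groups that did not overlap, beside 3.94% of all genes higher and 7.91% lower. The 7 log2 changes ran from -0.54 for Nlgn1 (95% interval -1.40 to 0.33, adjusted p = 0.936) to 0.15 for Nrxn2 (95% interval -0.75 to 1.05, adjusted p = 0.987). The Nlgn1 change rests on Ctrl_TTX replicate 1: without that library it was -0.06. The authors' deposited table calls 1 of the 7 lower at a q under 0.05, where it calls 1.83% of its genes lower and 0.336% higher: Nlgn1, given above.

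After withdrawal, 0 of the 7 were called in limma, where 0.00936% of all genes tested were called, and 1 had an unadjusted p under 0.05. That gene was Lgi1, with 22.9, 36.0 and 16.0 FPKM in Ctrl_TTXwd and 50.3, 53.2 and 45.1 FPKM in KD_TTXwd. Its groups did not overlap, as was so for 10.8% of all genes in this direction. The log2 difference was 1.03 (95% interval 0.47 to 1.59), with an unadjusted p of 0.00187 and an adjusted p of 0.263 in limma. The authors' deposited table gives Lgi1 a log2 change of 0.99 and a q of 0.00256, and calls 1.61% of its genes higher and 5.97% lower. No member was non-overlapping and lower, where 9.03% of all genes were. For Nlgn1 the difference was 0.66 (95% interval -0.21 to 1.52, adjusted p = 0.517), and it was 0.33 without Ctrl_TTXwd replicate 3 and 0.95 without Ctrl_TTXwd replicate 2. Nrxn2 differed by -0.29 (95% interval -1.20 to 0.61, adjusted p = 0.774), Nlgn2 by 0.02 (95% interval -0.54 to 0.58, adjusted p = 0.98), Nlgn3 by 0.16 (adjusted p = 0.822), Nrxn3 by 0.17 (adjusted p = 0.8) and Lrrtm2 by 0.24 (adjusted p = 0.76).

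The difference of the withdrawal responses, knockdown minus control, was called for 0 of the 7 genes in limma (0.0% of all genes tested were called) and had an unadjusted p under 0.05 for 1, Lgi1. It was above 0 for 6 of the 7, with a median of 0.44 against 0.00 for all genes, and below 0 for Nrxn2 (-0.44, 95% interval -1.72 to 0.84). For the same difference the 11 pan-neuronal markers had a median of 0.94, with 2 below 0, and the 11 microglial markers a median of -0.80, with all 11 below 0. The part of these shifts in the members' values was not tested. By group overlap alone, 3 of the 7 were lower after withdrawal in control cultures, where 19.6% of all genes were. The same count held in knockdown cultures, where 23.8% of all genes were lower and 20.2% higher, and Lgi1 was the 1 higher. The authors' deposited table calls 4 of the 7 lower in control cultures, where it calls 13.9% of its genes lower and 9.03% higher. In knockdown cultures the authors' deposited table calls 3 of the 7 lower and 1 higher, beside 13.6% and 5.41% of its genes.

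**Figure D3:**
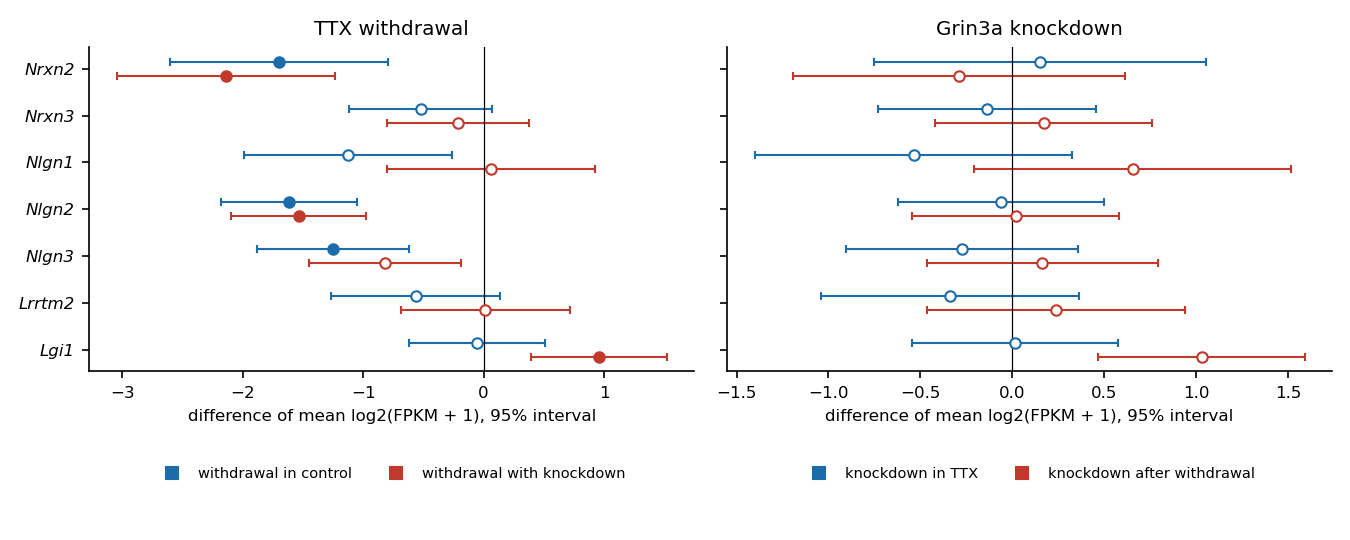
Log2 change of the 7 genes in each comparison, as points with 95% intervals from limma, filled where the adjusted p is under 0.05. The intervals of Nrxn2, Nlgn2 and Nlgn3 lie below 0 in both withdrawal comparisons, and that of Nlgn1 does in withdrawal in control. That of Lgi1 lies above 0 in withdrawal with knockdown and in knockdown after withdrawal.

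The order of the 7 by mean FPKM differed between groups. In Ctrl_TTX the means were 115 ± 19.4 FPKM for Nlgn2, 107 ± 35.4 for Nrxn2, 99.8 ± 34.5 for Nlgn3, 67.6 ± 43.2 for Nlgn1, 32.1 ± 14.7 for Lrrtm2, 25.1 ± 6.30 for Lgi1 and 11.8 ± 3.62 for Nrxn3 (SD, n = 3). Neighbours in that order overlapped between libraries, apart from Lgi1 and Nrxn3. In KD_TTXwd the order began with Lgi1 at 49.5 ± 4.10 FPKM, Nlgn3 at 44.8 ± 3.86 and Nlgn1 at 43.4 ± 7.91. It went on with Nlgn2 at 37.5 ± 6.25, Nrxn2 at 25.6 ± 6.46, Lrrtm2 at 24.4 ± 5.56 and Nrxn3 at 8.89 ± 1.83 FPKM (SD, n = 3), and again only Nrxn3 stood apart from its neighbour. Lgi1 thus had rank 6 in Ctrl_TTX, rank 5 in both KD_TTX and Ctrl_TTXwd, and rank 1 in KD_TTXwd, where its libraries overlapped those of Nlgn3.

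Across the 12 libraries, genes were also set beside each other by the root mean square difference of their log2 values, each centred on its own mean, over 8767 genes. These values share libraries and groups and are descriptions. Among the 7, the closest pairs were Nrxn3 with Lrrtm2 (0.161), Nlgn1 with Lrrtm2 (0.239) and Nrxn2 with Nlgn2 (0.308), and the farthest was Nrxn2 with Lgi1 (1.36). The paralogs Nlgn1 and Nlgn2 lay farther apart (0.763) than Nlgn2 lay from Nrxn2. Over all genes the nearest to Nrxn2 were Srcin1 (0.105) and Trim67 (0.177), and the nearest to Nlgn2 were Gnaz (0.0925) and Chd5 (0.152). Srcin1 encodes a Src kinase inhibitor found at synapses, Gnaz a G protein alpha subunit and Chd5 a chromatin remodeller of neurons. The nearest to Nlgn1 were Scn3b (0.109), a sodium channel beta subunit, and Zeb2 (0.156), a transcription factor. Nrcam (0.133) and Zbtb38 (0.134) lay nearest to Nrxn3, Atp2b3 (0.141), a plasma membrane calcium pump, lay close to Nlgn3, and Atf2 (0.141) and Pcdhga5 (0.146) to Lrrtm2. Slitrk4 (0.114), a synaptic adhesion gene, and Sv2b (0.202), a synaptic vesicle gene, lay nearest to Lgi1.

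Partners of these proteins were followed in lists that hold 116 tested genes beside the 7. Knockdown called 0 of the 116 in either treatment in limma, where 0.0% of all genes tested were called in TTX and 0.00936% after withdrawal. After withdrawal, 34 of the 116 were called lower and 1 higher in control cultures, where 11.1% of all genes tested were called lower and 6.61% higher, and the median log2 change was -0.45 against -0.01 for all genes. In knockdown cultures 15 were called lower and 5 higher, where 9.22% of all genes were called lower and 4.95% higher, and the median was -0.16 against 0.00. The count of each list below is to be read against these shares. The difference of the 2 responses was called for 0 of the 116, where 0.0% of all genes tested were called.

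Of the 16 tested genes of the neurexin ligand list, 3 fell in control cultures, where 11.1% of all genes did, and 13 did not pass (median log2 change -0.31). Cbln1, a secreted bridge between neurexins and GluD receptors, averaged 28.6 ± 8.55 FPKM in Ctrl_TTX and 9.95 ± 4.21 in Ctrl_TTXwd (SD, n = 3; log2 change -1.48, adjusted p = 0.0121). Clstn2, a calsyntenin, also fell in control cultures (-0.90, adjusted p = 0.0355). In knockdown cultures the 1 call of the 16 was Cbln2, which rose from 7.66 ± 1.72 to 16.0 ± 2.62 FPKM (SD, n = 3; log2 change 0.98, adjusted p = 0.0209). In control cultures Cbln2 changed by 0.65 without passing (adjusted p = 0.0752).

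Of 21 neuroligin partners, scaffold and MDGA genes, 8 fell in control and 2 in knockdown cultures, and none rose (medians -0.58 and -0.25). Mdga1, whose protein binds neuroligins and blocks their contact with neurexins, fell in both: from 62.0 to 15.8 FPKM in control (log2 change -2.15, adjusted p = 0.0155) and from 38.1 to 10.8 in knockdown cultures (-1.76, adjusted p = 0.0359). Lhfpl4, a partner of Nlgn2 and GABA-A receptors at inhibitory synapses, fell from 25.8 to 4.98 FPKM in knockdown cultures (-2.20, adjusted p = 0.00708), and in control cultures its change of -1.20 did not pass (adjusted p = 0.0567). Apba1 (-1.39), Dlg2 (-1.12) and Magi2 (-1.07), which encode PDZ proteins of the presynaptic and postsynaptic scaffold, fell in control cultures (adjusted p = 0.00773, 0.0354 and 0.0246). The call of Mdga1 in knockdown cultures was lost without Ctrl_TTX replicate 2 and without each of the 6 knockdown libraries in turn (adjusted p between 0.0505 and 0.138).

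Of 8 genes of the LGI and ADAM22 family group, 0 were called in control cultures and 1 in knockdown cultures, where 14.2% of all genes were called in either direction. The 1 gene was Lgi2, a paralog of Lgi1, which rose from 7.23 ± 1.68 to 19.4 ± 3.12 FPKM (SD, n = 3; log2 change 1.31, adjusted p = 0.024). In control cultures Lgi2 had 6.77, 9.06 and 6.32 FPKM in TTX and 8.39, 10.2 and 25.1 after withdrawal (log2 change 0.75, adjusted p = 0.13), and the mean after withdrawal rests on Ctrl_TTXwd replicate 3, the highest of the 3. Leaving out any of the 6 knockdown libraries ended the call (adjusted p between 0.0537 and 0.083). The difference of its responses was 0.56 (adjusted p = 0.627).

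Of 13 genes of the CASPR and contactin group, Cntnap4 rose in both, from 6.68 to 11.8 FPKM in control (log2 change 0.72, adjusted p = 0.018) and from 8.86 to 19.1 in knockdown cultures (1.04, adjusted p = 0.00528). Cntn3, a contactin, rose from 2.87 to 9.18 FPKM in knockdown cultures (1.38, adjusted p = 0.013). Epb41l3 (-0.88, adjusted p = 0.0206) and Cntn1 (-0.87, adjusted p = 0.0474) fell in control cultures.

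Of 40 other synaptic adhesion genes, 16 fell in control and 10 in knockdown cultures, and none rose (medians -0.72 and -0.26), where 11.1% and 9.22% of all genes fell and 6.61% and 4.95% rose. Lrrc4b, which encodes NGL-3, a postsynaptic ligand of LAR-type phosphatases, averaged 194 and 54.9 FPKM in control (log2 change -1.94, adjusted p = 0.00576) and 174 and 30.6 in knockdown cultures (-2.50, adjusted p = 0.00337). Bai2, an adhesion G protein-coupled receptor, fell from 101 to 35.9 and from 103 to 25.7 FPKM (-1.46, adjusted p = 0.0225, and -1.99, adjusted p = 0.00781). Flrt1 (-1.53, adjusted p = 0.00405) and Ephb2 (-1.45, adjusted p = 0.0118) were the other leading falls in control cultures. Cadm4 (-1.89, adjusted p = 0.0308) and Bai1 (-1.71, adjusted p = 0.00438) were those in knockdown cultures.

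Of 9 genes whose products cut neurexins or neuroligins, 0 were called in control cultures and 1 in knockdown cultures: Psen2, a presenilin, at 18.0 and 10.3 FPKM (log2 change -0.76, adjusted p = 0.0228). Of 9 RNA-binding proteins known to splice neurexin or synaptic transcripts, 5 fell in control cultures. They were led by Rbfox3 (76.8 to 17.5 FPKM, log2 change -2.10, adjusted p = 0.00332), Rbfox2 (-1.56, adjusted p = 0.0159), Rbfox1 (-0.78, adjusted p = 0.0366) and Khdrbs3 (-0.78, adjusted p = 0.0252). In knockdown cultures Rbfox3 (-1.50, adjusted p = 0.00953) and Ptbp1 (-0.94, adjusted p = 0.00818) fell and Nova1 rose (0.72, adjusted p = 0.0469).

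Several partner calls rest on single libraries. Without Ctrl_TTXwd replicate 3, the control calls of Clstn2, Dlg2, Magi2, Cntn1, Epb41l3, Bai2, Rbfox1, Rbfox2 and Khdrbs3 were lost (adjusted p between 0.0542 and 0.134). Without Ctrl_TTXwd replicate 1, those of Clstn2, Dlg2, Cntn1, Epb41l3, Rbfox1 and Khdrbs3 were lost (0.058 to 0.115). Without Ctrl_TTX replicate 3, 7 were lost: Clstn2, Dlg2, Magi2, Cntn1, Cntnap4, Bai2 and Rbfox1 (0.0501 to 0.0808). Without Ctrl_TTX replicate 1, 6 were lost: Clstn2, Dlg2, Magi2, Cntn1, Rbfox1 and Khdrbs3 (0.0502 to 0.114). Clstn2 and Cntn1 also lost their calls without Ctrl_TTX replicate 2 (with Bai2), KD_TTX replicate 2 (with Dlg2 and Rbfox1) or KD_TTXwd replicate 1 (with Rbfox1), and Cntn1 without Ctrl_TTXwd replicate 2 or KD_TTXwd replicates 2 or 3. The partner calls in control cultures that no left-out library ended were those of Cbln1, Mdga1, Apba1, Lrrc4b, Flrt1, Ephb2 and Rbfox3, among the genes named. Fitted on the 6 control libraries alone, none of the named partners passed in control cultures, these 7 included (adjusted p between 0.0615 for Rbfox3 and 0.103 for Mdga1 among the 7).

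In knockdown cultures, 8 named partner calls were lost without KD_TTXwd replicate 1: Cbln2, Mdga1, Lgi2, Cntn3, Cadm4, Psen2, Rbfox3 and Nova1 (adjusted p between 0.0554 and 0.171). Without KD_TTX replicate 2 the same genes apart from Rbfox3 were lost (0.0538 to 0.153), and without KD_TTX replicate 1 also apart from Cntn3 (0.0773 to 0.107). Without KD_TTXwd replicate 2, 5 were lost: Cbln2, Lgi2, Mdga1, Nova1 and Psen2 (0.0525 to 0.101). Cadm4, Lgi2, Mdga1 and Nova1 were lost without KD_TTX replicate 3 or KD_TTXwd replicate 3 (0.0595 to 0.1). Nova1 was also lost without Ctrl_TTX replicate 2 or 3 and without Ctrl_TTXwd replicate 1 or 2 (0.051 to 0.0593). Lrrc4b, Bai2, Bai1, Lhfpl4, Cntnap4 and Ptbp1 kept their calls in every such fit.

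**Figure D4:**
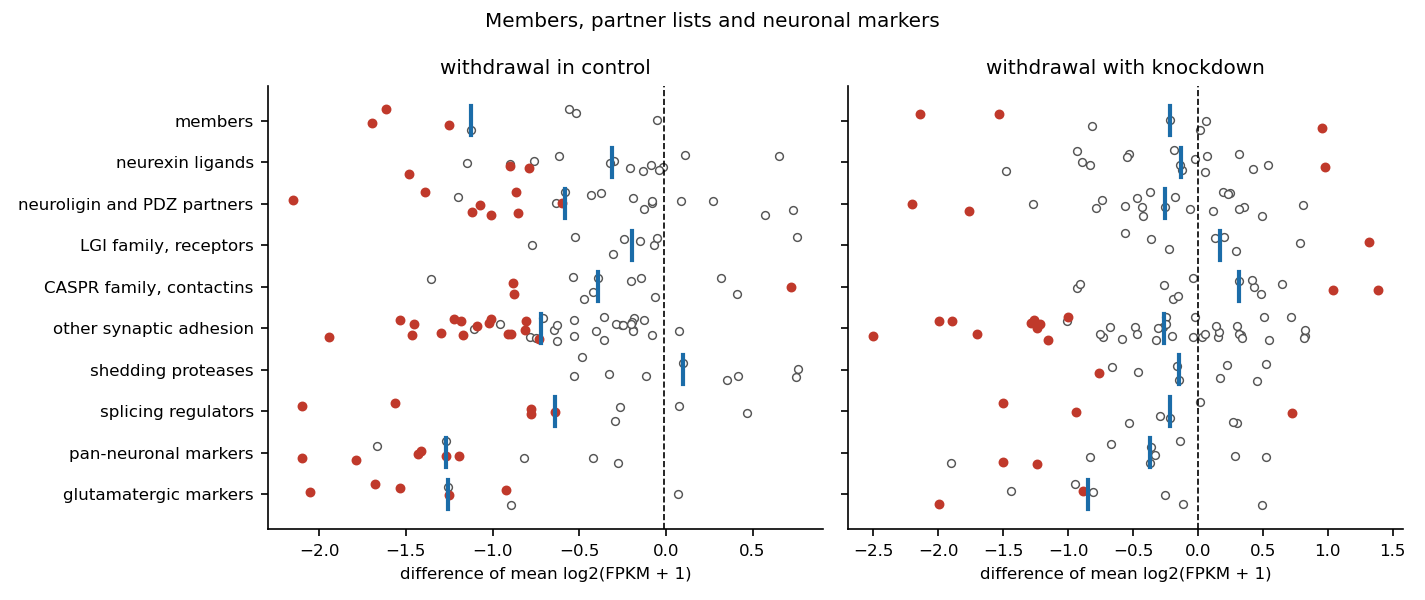
Log2 change of each gene (difference of mean log2(FPKM + 1)) after TTX withdrawal, by list, in control cultures on the left and knockdown cultures on the right; the row of members holds the 7 genes, filled points passed at an adjusted p under 0.05, and bars mark list medians. The other adhesion genes are 40 of the 116 partner genes tested. They hold 16 of the 34 lower calls in control cultures and 10 of the 15 in knockdown cultures.

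Markers of cell types moved with the withdrawal results. In bulk RNA, fewer cells of a type and less RNA per cell cannot be told apart. Of the 11 pan-neuronal markers, 6 were called lower in control cultures (median log2 change -1.27) and 2 in knockdown cultures (median -0.37). In knockdown cultures 9 of the 11 changes were below 0. Stmn2, which weighs most in the sums, averaged 1166 FPKM in KD_TTX and 1739 in KD_TTXwd, and Tubb3 723 and 208. The summed level of the 11 was 3577 to 4553 FPKM in Ctrl_TTX and 1004 to 3525 in Ctrl_TTXwd, and 2757 to 3136 in KD_TTX and 2090 to 3669 in KD_TTXwd. Of 8 glutamatergic markers, 5 were lower in control (median -1.25) and 2 in knockdown cultures (median -0.84), and their sums were 960 to 981, 178 to 642, 652 to 779 and 376 to 535 FPKM in the same order. Of 11 microglial markers, 0 were called, and none of the 8 astrocyte markers was. Microglial sums were 203 to 595 FPKM in Ctrl_TTX, 101 to 1748 in Ctrl_TTXwd, 176 to 625 in KD_TTX and 41.2 to 529 in KD_TTXwd. The 1748 came from Ctrl_TTXwd replicate 3, the library lowest in its group for all 7 genes. Astrocyte sums were 1383 to 3474, 1413 to 2692, 1131 to 3175 and 834 to 1641 FPKM. Of 7 GABAergic markers in the table, 2 were lower and 1 higher in each of the withdrawal comparisons; their sums were 92.3 to 180 FPKM in Ctrl_TTX, 89.3 to 271 in Ctrl_TTXwd, 115 to 138 in KD_TTX and 128 to 199 in KD_TTXwd. Of 5 oligodendrocyte lineage markers, 1 was lower in control and 0 were called in knockdown cultures, and of 4 vascular markers 0 were called in either. No marker in the table, of any of these lists, was below 0.1 FPKM in all 3 libraries of a group. For Ctrl_TTX this could not be otherwise, as no gene in the table is under 1.00 FPKM in its replicate 1. Rbfox3 is both a neuronal marker and a member of the splicing list. The part of these shifts in the results was not tested.

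Locus length also moved with the changes. Over the 10689 genes tested, Spearman's rho between the span of the deposited locus and the log2 change was -0.21 for withdrawal in control cultures and 0.10 in knockdown cultures, and -0.32 and 0.29 for knockdown in TTX and after withdrawal. These are descriptions across genes that share libraries. Nlgn2 at 13.3 kb is longer than 32.8% of the genes and Nlgn3 at 22.0 kb longer than 47.4%. Lgi1 at 40.9 kb is longer than 66.0%, Nrxn2 at 109.9 kb longer than 86.4% and Nlgn1 at 734.5 kb longer than 98.9%. With each library corrected for this trend, the members called were the same. These were 3 lower in control cultures and 2 lower and 1 higher in knockdown cultures. In control cultures the changes went from -0.52 to -0.17 for Nrxn3, -1.13 to -0.81 for Nlgn1 and -0.56 to -0.34 for Lrrtm2. Nrxn2 went from -1.70 to -1.49, Nlgn2 from -1.61 to -1.68, Nlgn3 from -1.25 to -1.27 and Lgi1 from -0.05 to 0.03. The correction of Lrrtm2 used the span of the locus it shares with Ctnna1.

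**Figure D5:**
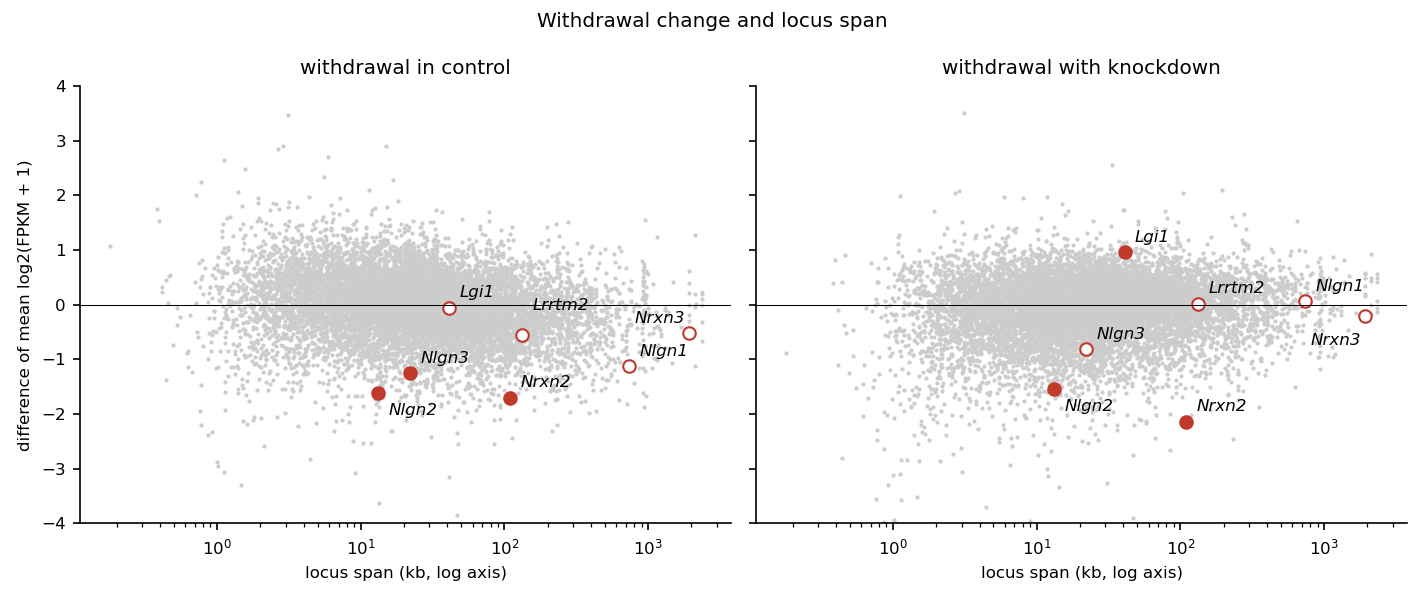
Log2 change after TTX withdrawal against locus span in kilobases (log axis) for all tested genes, in control cultures on the left and knockdown cultures on the right, with the 7 genes marked. Lrrtm2 is drawn at the span of the locus it shares with Ctnna1, and 7 points beyond a log2 change of 4 in either direction are not shown.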

How the data were processed

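The study deposited 1 table of polyadenylated RNA values for 12 libraries in 4 groups of 3. Per the submitters' processing notes, Trimmomatic, TopHat2, Cufflinks and Cuffdiff were used with genome build rn5; versions, annotation and use of strand are not given in the sources used here. The library and group values are FPKM as deposited by the authors, and the authors also deposited log2 fold changes and a q-value (an adjusted p-value) for each comparison. Read depth is unknown: FPKM lists no reads, and low values were too few to recover it. The labels do not say whether libraries came from separate culture preparations, and p-values therefore describe only how these 12 libraries vary. The table holds 10730 genes. For 1 gene the library mean departed from the deposited group value by over 1%, and it was dropped; 18 symbols had become numbers or dates. The lowest value in Ctrl_TTX replicate 1 is 1.00 FPKM, against at most 0.0436 in the others, which may reflect a filter applied to that library. A gene lower than that in this library has no row, so the shares of all genes called leave such genes out.

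Genes with at least 1 FPKM in at least 3 of the 12 libraries (10689, with 40 not tested) were fitted as log2(FPKM + 1) with limma 3.58.1 in R 4.3.3 (trended variance, 1 coefficient per group, 8 residual degrees of freedom, two-sided). P-values were adjusted by Benjamini-Hochberg over all genes tested, with a threshold of 0.05. The script was tested on simulated data. Neuroligin shares were compared by exact permutation of labels within strata (400 relabellings), computed with numpy 2.4.6. Alternatives were another pseudocount (0.1), no filter, a mean of at least 5 FPKM, median ratio scaling, quantile normalization, a robust variance model, a replicate block, only the libraries compared, a correction for locus span and leaving out each library.

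Groups share replicate numbers. Same-numbered libraries deviated together between the control and the knockdown in TTX (correlations 0.617, 0.436 and 0.667). By the values and not by the labels, the numbers therefore pair the libraries there. The main fit had no replicate term, and the main permutations of neuroligin shares did not keep same-numbered libraries together. Every other comparison had at least 1 pair under 0.1.

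The members and the partner and marker lists were chosen with earlier results of these data known. Named genes are all members, up to 4 called genes per partner list and comparison by size of change, Grin3a, Ctnna1 and Ctnna2, and for each member the 2 nearest genes over the 12 libraries, among 8767 genes with a mean of at least 5 FPKM. Some of these genes are not reported here. Promoters came from RefSeq (GRCr8) and matched 5 of the 7 members by symbol.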

Additional observations from a re-analysis of the deposited data

How the results depend on the processing

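Fits on only the libraries compared called 0 members lower after withdrawal in control cultures, against 3 in the fit of all 12 libraries; the log2 changes were the same, and the smaller fit has fewer residual degrees of freedom. The replicate block called 4 lower in control cultures, adding Nlgn1, and 3 lower and 1 higher in knockdown cultures, adding Nlgn3; it changed no other call of a member. Leaving out 1 library gave 2 to 4 members lower in control cultures, and 1 to 3 lower and 0 to 1 higher in knockdown cultures. No alternative called a member for knockdown or for the difference of the withdrawal responses. With 1 library left out, the withdrawal difference ran from 8.48 to 12.8 points for the Nlgn1 share and from -16.6 to -10.3 for the Nlgn2 share, and the knockdown difference from 0.21 to 4.51 and from -4.39 to 1.89. For the withdrawal difference of each of these shares, the adjusted p of the permutation tests was 0.09 in the main test. It ran from 0.015 to 0.195 with 1 library left out, and reached 0.281 over all alternatives. As a log2 ratio of Nlgn2 to Nlgn1, the withdrawal difference was -1.06 (exact permutation p = 0.025). Quantile normalization turned the sign of 3 changes that did not pass: Nlgn2 with knockdown in TTX (0.063), Lgi1 in control cultures (0.0284) and the Nlgn2 difference of responses (-0.049). The locus span correction turned 4: Nrxn3 with knockdown after withdrawal (-0.10), its difference of responses (-0.10), Lgi1 (0.0282) and Ctnna2 (0.12) in control cultures. Leaving out 1 library turned others that did not pass. For knockdown in TTX the ranges were -0.16 to 0.33 for Nrxn2, -0.28 to 0.083 for Nrxn3, -0.21 to 0.039 for Nlgn2, -0.52 to 0.0022 for Lrrtm2 and -0.10 to 0.21 for Lgi1. For knockdown after withdrawal they were -0.83 to 0.037 for Nrxn2, -0.092 to 0.31 for Nrxn3, -0.30 to 0.20 for Nlgn2, -0.11 to 0.33 for Nlgn3 and -0.035 to 0.48 for Lrrtm2. Withdrawal gave -0.35 to 0.22 for Lgi1 in control cultures, and -0.054 to 0.22 for Nlgn1 and -0.12 to 0.20 for Lrrtm2 in knockdown cultures; the Nlgn2 difference of responses ran from -0.24 to 0.26. The cause of these changes was not tested. Depth being unknown, counting error could not be separated from the spread between libraries.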
